A study of Poecilia reticulata with 6 samples.

Results

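The genes described here belong by name to families of protein digestion and amino acid uptake. They were measured in the intestine of the guppy (Poecilia reticulata), a small fish that lives in fresh water and tolerates seawater. They were chosen by gene name, so some have other roles, such as the transmitter carrier genes slc6a3 and slc6a4a. The choice took every solute carrier of families slc1, slc3, slc6, slc7, slc15, slc36, slc38 and slc43, without the taurine transporter gene slc6a6, and every peptidase whose name begins with anpep, enpep, dpp and a number, mep1, lap3, xpnpep, npepps, naalad or pepd. Of the 10389 genes in the table, 62 carried such a name, and 48 of them had a level of at least 1 TPM, a transcript abundance scaled to transcript length and to the library total, in at least 2 of the 6 libraries. The same condition left 7897 genes in all. The 48 genes comprise 33 transporters and 15 peptidases, while the other 14 were lower, with a highest value of 3.58 TPM in any library. The name and level conditions used no difference between salinities, but 6 of the 48 genes were under 1 TPM in at least 1 library, so their passing can depend on the group where they are higher. These genes were slc7a1a, slc43a2a, slc1a2b, slc1a6, slc1a4 and slc6a3. Counts below that hold any of them are not independent of the level condition. The gene families were also chosen with earlier results of these data known, so shares set against all genes are descriptions only.

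Total RNA came from the intestine of adult wild-type guppies kept at 0‰, 18‰ or 35‰ salt, with 2 libraries at each salinity. The 0‰ fish received no added salt, and for the other groups the salt was raised by 3‰ every 2 days, reaching 35‰ within 24 days, so salinity and time of exposure cannot be told apart. The number, sex and tanks of the fish behind each library are not given in the sources used here. The spread between 2 libraries is therefore the only error available, and it may be partly technical.

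Dietary protein is first cut by secreted proteases, and the resulting oligopeptides are trimmed by peptidases anchored in the brush border, the apical membrane of enterocytes. Di- and tripeptides then enter the enterocyte with protons through the peptide transporter encoded by slc15a1, while free amino acids enter through carriers that couple to sodium or protons or exchange one amino acid for another. Inside the cell, cytosolic and lysosomal peptidases complete the digestion, and basolateral carriers release amino acids to the blood.

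Since TPM is scaled for transcript length, levels can be compared between genes. The summed TPM of the 48 genes was 4193 and 5604 in the libraries at 0‰, 7942 and 8703 at 18‰, and 4437 and 6399 at 35‰. Both 18‰ libraries thus lay above the other 4, and the 0‰ and 35‰ libraries overlapped. These sums made up 0.921% to 1.89% of the TPM listed in a library. Levels were uneven, with 9 genes at a mean of 100 TPM or more over the 6 libraries and 11 genes under 5 TPM. The most abundant was anpepb, a gene for aminopeptidase N, which removes neutral residues from the amino end of peptides. It held between 19.8% and 37.1% of the summed TPM, followed by slc15a1b, mep1b, enpep and slc6a19a.2.

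Before the genes are described, the composition of the libraries is given, because tissue other than absorptive epithelium differed between them. Over 9 enterocyte markers the summed TPM was 9636 in 0‰ replicate 1 and between 18125 and 25419 in the other 5 libraries. Most of that sum was the single gene apoa1b, at 7262 TPM in 0‰ replicate 1 and 14122 to 20930 TPM elsewhere, so the sum mainly follows this gene. In 4 exocrine pancreas markers it ranged from 2824 to 11114 at 0‰ and 18‰ and was 10.3 and 94.0 at 35‰. For 5 genes of the distal gut and its lysosome-rich enterocytes it ranged from 2383 to 3627 at 0‰ and 18‰ and was 89.9 and 553 at 35‰. Most of that 553 was the single gene slc10a2, at 429 TPM in 35‰ replicate 2 and a listed 0 in 35‰ replicate 1. A liver list of 5 genes summed to 1583 in 0‰ replicate 2 and to 38.5 or less elsewhere, and 6 leukocyte genes summed to 774 in 0‰ replicate 1 and to 251 to 356 elsewhere. The 2 kidney markers in the table were at 0 in 5 libraries and summed to 1.54 in 35‰ replicate 2. Goblet cell genes (2) summed to 161 and 242 at 35‰ and to 299 to 663 at 0‰ and 18‰, enteroendocrine genes (5) to 63.5 and 71.9 at 35‰ and to 102 to 145 elsewhere, smooth muscle genes (5) to between 74.6 and 175 and neuron and glia genes (8) to between 1.96 and 6.42 over all libraries. In bulk tissue, fewer cells of a type and less RNA per cell cannot be told apart. The part of these differences in the results below was not tested.

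**Figure D1:**
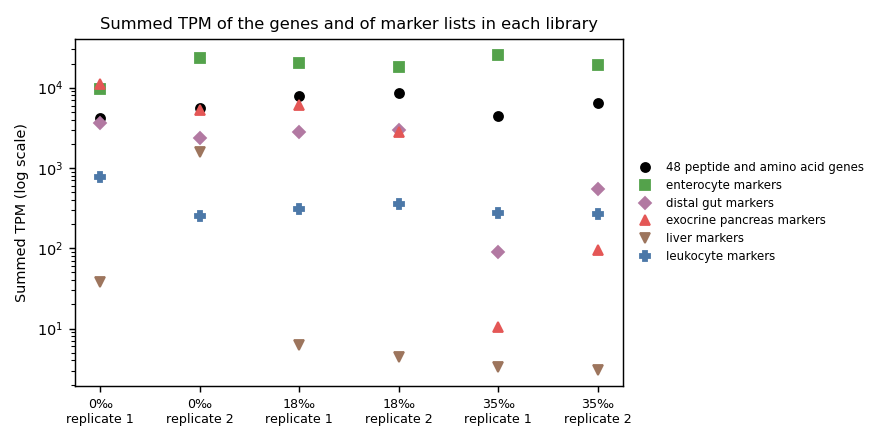
Summed TPM (vertical axis, log scale) of the 48 peptide and amino acid genes and of 5 marker lists in each of the 6 libraries (horizontal axis, by salinity). Pancreas and distal gut markers are lowest in both 35‰ libraries, liver markers are highest in 0‰ replicate 2, and the 48 genes are highest in the 18‰ libraries at 7942 and 8703 TPM.

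The genes were compared between salinities with limma's moderated test on log2(TPM + 1) over all 7897 genes. To be called, a gene needed a fold change above 1.5 and a Benjamini-Hochberg adjusted p under 0.05. None of the 48 genes was called in any of the 3 comparisons. Over all genes tested the called share was 0.0127% in 18‰ versus 0‰, 0.19% in 35‰ versus 0‰ and 0.317% in 35‰ versus 18‰. At an unadjusted p under 0.05 in limma, with no limit on the fold change, there were 11, 10 and 19 of the 48 genes in the same order, or 22.9%, 20.8% and 39.6%, against 5.93%, 11.3% and 12.5% of all genes. All differences of the 48 genes given below are therefore descriptions of 2 libraries against 2 that did not pass adjustment in this fit. Permuting 2 libraries against 2 in an exact two-sided test gives no p under 0.333.

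The brackish water libraries held the highest values of many of these genes. In 15 of the 48 genes (31.2%) both 18‰ libraries lay above the other 4, against 11.9% of all genes tested. These 15 were 6 peptidases and 9 transporters. Among the 20 genes with a mean of at least 20 TPM it was 8, or 40.0%, against 12.3% of all genes at that level, and among the 28 lower genes it was 7, or 25.0%, against 11.8%. Both 18‰ libraries were lowest in 2 genes (4.17%, against 5.13%). Both 0‰ libraries were highest in 2 genes (4.17%, against 4.86%) and lowest in 6 (12.5%, against 7.81%), and both 35‰ libraries were highest in 5 (10.4%, against 10.6%) and lowest in 10 (20.8%, against 14.2%). With 35‰ replicate 2 left out, the lone 35‰ library was lowest in 24 genes (50.0%, against 36.4% of all genes under the same omission), and with 0‰ replicate 1 left out the 35‰ libraries were lowest in 16 (33.3%, against 20% of all genes). The count lowest at 0‰ was 15 without 0‰ replicate 2 (31.2%, against 25.6%) and 12 without 35‰ replicate 1 (25.0%, against 14.9%).

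**Figure D2:**
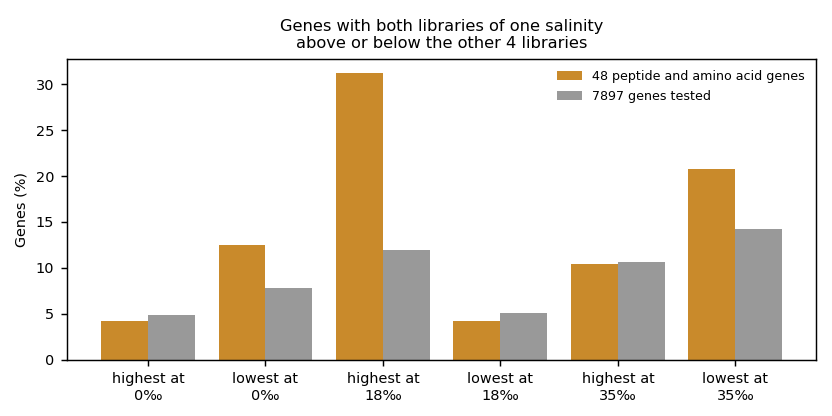
Share of genes in percent (vertical axis) in which both libraries of one salinity lie above or below the other 4 libraries (horizontal axis), for the 48 peptide and amino acid genes and for all 7897 genes tested. The bars differ most for genes highest at 18‰, at 31.2% of the 48 genes and 11.9% of all genes.

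Among the brush-border peptidases, 6 of 9 had both 18‰ libraries above both 0‰ libraries and none had both below. Over all genes tested, 24.7% lay above and 12.8% below in this comparison. The enpep gene encodes aminopeptidase A, which removes acidic residues and also cleaves angiotensin. Its TPM was 259.9 and 310.4 at 0‰, 583 and 795 at 18‰, and 414 and 677 at 35‰. All 4 libraries with added salt lay above both 0‰ libraries, and those at 18‰ and 35‰ overlapped. The fitted log2 fold change came to 1.26 in 18‰ versus 0‰ (standard error 0.31, limma's adjusted p = 0.532) and 0.90 in 35‰ versus 0‰ (standard error 0.31, limma's adjusted p = 0.353).

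The xpnpep2 gene encodes the membrane-bound aminopeptidase P, which cleaves in front of proline. It stood at 188 and 221 TPM at 0‰, 378 and 421 at 18‰, and 232 and 247 at 35‰. The 18‰ libraries lay above all others, with a ratio of mean TPM of 1.96 in 18‰ versus 0‰ and 0.60 in 35‰ versus 18‰. The log2 fold changes were 0.97 (standard error 0.21, limma's adjusted p = 0.468) and −0.73 (standard error 0.21, limma's adjusted p = 0.259). For anpepb the libraries read 1391 and 1745 TPM at 0‰, 2555 and 3233 at 18‰, and 878 and 1865 at 35‰. Its 18‰ libraries were also highest, while the 35‰ libraries differed from each other by more than the 0‰ libraries did and overlapped them. In 35‰ versus 18‰ its log2 fold change was −1.17 (standard error 0.38, limma's adjusted p = 0.296). The second aminopeptidase N gene, ANPEP, had 45.9 and 71.1 TPM at 0‰, 65.2 and 90.2 at 18‰, and 31.0 and 48.4 at 35‰. Only its 35‰ and 18‰ libraries did not overlap, with a log2 fold change of −0.96 in 35‰ versus 18‰ (standard error 0.33, limma's adjusted p = 0.319).

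Meprins are zinc metalloproteases built from alpha and beta subunits and bound to or shed from the brush border. The alpha subunit genes mep1a.1 and mep1a.2 are direct neighbours in the RefSeq annotation of the assembly Guppy_female_1.0. The TPM of mep1a.1 was 80.8 and 87.7 at 0‰, 130.2 and 152 at 18‰, and 124 and 119 at 35‰. For mep1a.2 it was 215 and 171 at 0‰, 269 and 319 at 18‰, and 174 and 227 at 35‰. Both genes were highest at 18‰, but at 35‰ mep1a.1 stayed above both 0‰ libraries and mep1a.2 overlapped them. The log2 fold changes in 18‰ versus 0‰ were 0.73 for mep1a.1 and 0.60 for mep1a.2. How similar their sequences are was not analysed here, and reads shared between paralogs would make their separate values uncertain.

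The genes named for the beta subunit had different orders of levels. MEP1B had 43.7 and 58.5 TPM at 0‰, 80.2 and 94.6 at 18‰, and 49.7 and 64.1 at 35‰, so it was highest at 18‰. The more abundant mep1b had 420.03 and 976 TPM at 0‰, 661 and 523 at 18‰, and 854 and 1142 at 35‰. Its 0‰ libraries spanned those at 18‰, and the 35‰ libraries lay above the 18‰ libraries, with a log2 fold change of 0.75 in 35‰ versus 18‰ (standard error 0.41, limma's adjusted p = 0.484). The glutamate carboxypeptidase gene naalad2 had 25.8 and 71.1 TPM at 0‰, 35.9 and 40.7 at 18‰, and 57.9 and 35.3 at 35‰, and no pair of salinities separated.

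**Figure D3:**
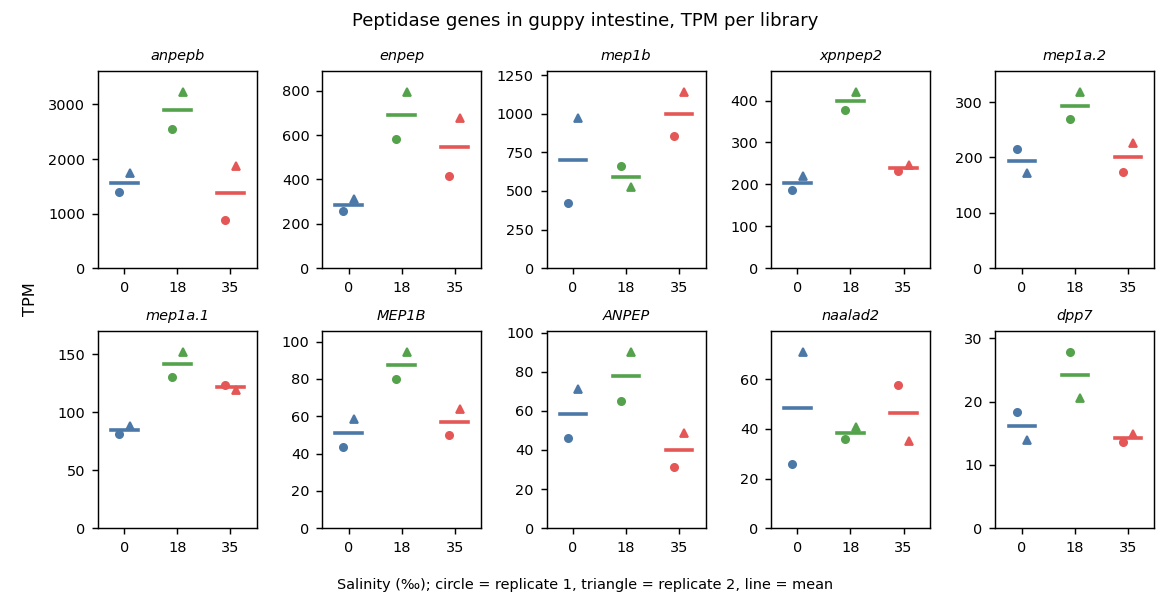
TPM (vertical axes, each starting at 0) of 9 brush-border peptidase genes and dpp7 in each library at 0‰, 18‰ and 35‰ (horizontal axis), with circles for replicate 1, triangles for replicate 2 and lines for means. The panels of anpepb, xpnpep2, mep1a.2, mep1a.1 and MEP1B show both 18‰ libraries above the other 4.

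The other 6 peptidases act mainly inside cells. Their log2 fold changes ran from −0.59 to 0.55 in 18‰ versus 0‰, from −0.56 to 0.29 in 35‰ versus 0‰ and from −0.71 to 0.54 in 35‰ versus 18‰, against −0.16 to 1.26, −0.55 to 0.90 and −1.17 to 0.75 for the brush-border genes. Whether the groups of peptidases differ was not tested. The pepd gene encodes prolidase, which splits dipeptides that end in proline. It had 78.7 and 100.4 TPM at 0‰, 96.4 and 97.0 at 18‰, and 108 and 110.2 at 35‰, and its 35‰ libraries were the highest by a small margin. The puromycin-sensitive aminopeptidase gene npepps ranged from 58.5 to 105 TPM and the cytosolic dipeptidyl peptidase gene DPP9 from 23.5 to 27.4 TPM, with no separation from 0‰ in either.

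The dpp7 gene encodes a dipeptidyl peptidase of lysosomes and other vesicles. It had 18.3 and 13.9 TPM at 0‰, 27.9 and 20.6 at 18‰, and 13.7 and 14.9 at 35‰, with both 18‰ libraries highest. In 35‰ versus 18‰ its log2 fold change was −0.71 (standard error 0.26, limma's adjusted p = 0.339). The cytosolic dpp3 showed the reverse order, with 66.4 and 44.9 TPM at 0‰, 43.6 and 29.6 at 18‰, and 62.0 and 44.9 at 35‰, with both 18‰ libraries lowest. The margin was small, since the higher 18‰ library stood at 43.6 and the lowest of the others at 44.9 TPM. The mitochondrial aminopeptidase gene xpnpep3, which was under 10 TPM in every library, was lowest in both 35‰ libraries.

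The peptide transporter gene slc15a1b was the second most abundant of the 48. Its TPM was 446 and 773 at 0‰, 1444 and 1306 at 18‰, and 759 and 871 at 35‰. Both 18‰ libraries lay above the other 4, and the 35‰ libraries overlapped those at 0‰. The mean was 1375 ± 97.5 TPM at 18‰, against 609.6 ± 231 TPM at 0‰ (SD, n = 2 each), a ratio of 2.26. The fitted log2 fold change came to 1.22 in 18‰ versus 0‰ (standard error 0.30, limma's adjusted p = 0.532) and −0.76 in 35‰ versus 18‰ (standard error 0.30, limma's adjusted p = 0.38).

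Neutral amino acids enter enterocytes mainly with sodium through the carrier encoded by slc6a19. The slc6a19a.2 gene had 257 and 375 TPM at 0‰, 788 and 814 at 18‰, and 173 and 319 at 35‰. Both 18‰ libraries stood far above all others, and the 0‰ and 35‰ libraries overlapped. Its fitted log2 fold change came to 1.36 in 18‰ versus 0‰ (standard error 0.34, limma's adjusted p = 0.548) and −1.77 in 35‰ versus 18‰ (standard error 0.34, limma's adjusted p = 0.127). The related slc6a18 had 60.9 and 34.2 TPM at 0‰, 142 and 79.0 at 18‰, and 16.2 and 48.02 at 35‰. It was again highest at 18‰, with a log2 fold change of −1.88 in 35‰ versus 18‰ (standard error 0.55, limma's adjusted p = 0.259). In the RefSeq annotation of Guppy_female_1.0, slc6a18 and slc6a19a.2 lie on the same linkage group with 2 annotated genes between them.

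The other gene named for this carrier, SLC6A19, did not share that order. It had 15.5 and 14.4 TPM at 0‰, 7.90 and 15.3 at 18‰, and 7.58 and 8.50 at 35‰. Its 35‰ libraries lay below both 0‰ libraries, with a log2 fold change of −0.82 in 35‰ versus 0‰ (standard error 0.32, limma's adjusted p = 0.397), and its 18‰ libraries spanned most of that range. SLC6A20, named for the sodium-coupled carrier of proline and related imino acids, had 30.9 and 37.4 TPM at 0‰, 36.5 and 39.2 at 18‰, and 44.4 and 52.5 at 35‰. It was highest in the 35‰ libraries, with a log2 fold change of 0.49 in 35‰ versus 0‰ (standard error 0.22, limma's adjusted p = 0.468).

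The slc6 family also holds carriers of transmitters. The proline transporter gene slc6a7, known from mammalian brain, had 11.4 and 11.2 TPM at 0‰, 21.7 and 21.7 at 18‰, and 8.81 and 15.7 at 35‰. Its 18‰ libraries were again the highest, with a ratio of mean TPM of 1.91 in 18‰ versus 0‰ (log2 fold change 0.88, standard error 0.29, limma's adjusted p = 0.713). The dopamine transporter gene slc6a3 was near the detection limit, with 0.39 and 1.25 TPM at 0‰, 0.07 and 0.37 at 18‰, and 0.95 and 2.60 at 35‰. It was lowest in the 18‰ libraries, and at such levels the pseudocount of 1 decides much of the fold change. The serotonin transporter gene slc6a4a ranged from 4.64 to 7.91 TPM.

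Cystine and cationic amino acids are taken up across the apical membrane by a carrier whose light chain is encoded by slc7a9 and which works in exchange for neutral amino acids. The slc7a9 gene had the largest log2 fold change of the 48 in 18‰ versus 0‰, at 1.87 (standard error 0.33, limma's adjusted p = 0.376). Its libraries read 6.63 and 6.30 TPM at 0‰, 26.3 and 26.2 at 18‰, and 10.5 and 21.1 at 35‰. The replicates were close at 0‰ and 18‰ and wide at 35‰, and all 4 libraries with added salt lay above both 0‰ libraries. The ratio of mean TPM was 4.05 in 18‰ versus 0‰ and 2.44 in 35‰ versus 0‰. The other light chain in the table, slc7a5, which carries large neutral amino acids, had 2.71 and 4.26 TPM at 0‰, 6.08 and 4.08 at 18‰, and 1.31 and 3.68 at 35‰. Only its 35‰ and 18‰ libraries separated. No slc3 gene, the family of the heavy chains that both light chains pair with, is among the 62 named genes, so heavy chains were not analysed here.

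The cationic branch of the family, whose typical members carry arginine and lysine without a heavy chain, is represented by 4 genes, although slc7a4 belongs to it by sequence and is not known to be such a carrier in mammals. All 4 had both 35‰ libraries below both 18‰ libraries. Over all genes tested, 29.0% lay below and 18.7% above in 35‰ versus 18‰. The most abundant, slc7a3a, had 16.7 and 17.4 TPM at 0‰, 23.9 and 13.7 at 18‰, and 5.84 and 11.2 at 35‰. It was lowest in the 35‰ libraries, with a log2 fold change of −0.99 in 35‰ versus 0‰ (standard error 0.37, limma's adjusted p = 0.38). SLC7A1 was highest at 18‰, where the libraries read 14.6 and 8.06 TPM, against 7.81 and 7.13 at 0‰. The remaining genes, slc7a4 and slc7a1a, did not exceed 2.53 TPM. The slc7a1a gene was under 1 TPM in both 35‰ libraries and passed the level condition through 0‰ and 18‰ libraries.

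**Figure D4:**
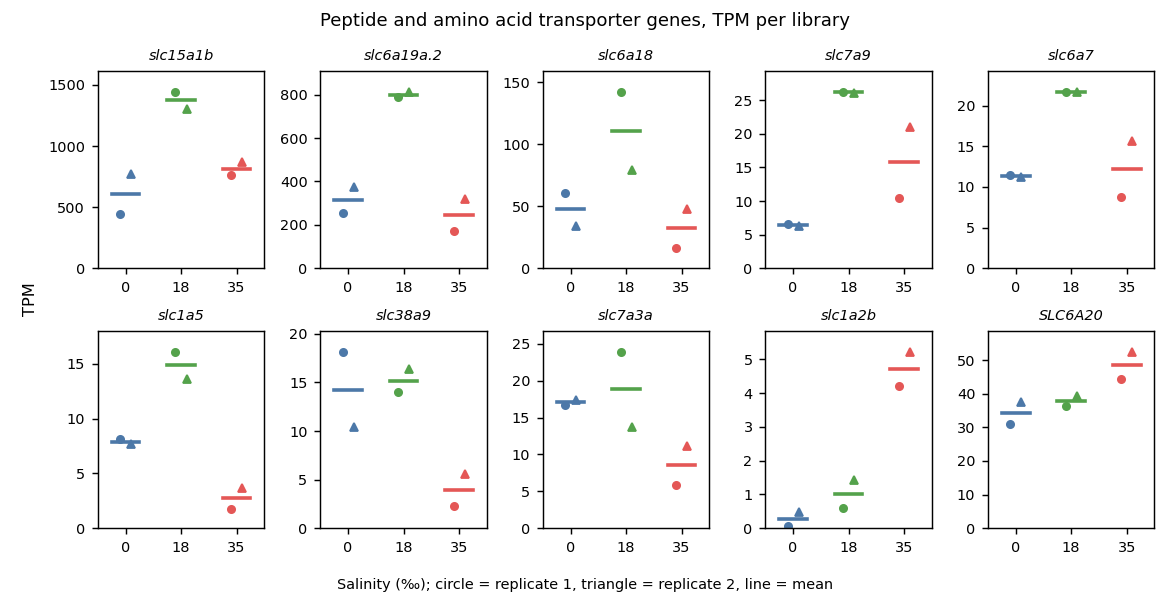
TPM (vertical axes, each starting at 0) of 10 peptide and amino acid transporter genes in each library at 0‰, 18‰ and 35‰ (horizontal axis), with circles for replicate 1, triangles for replicate 2 and lines for means. The slc15a1b, slc6a19a.2, slc6a18, slc7a9, slc6a7 and slc1a5 panels peak at 18‰, slc38a9 and slc7a3a are lowest at 35‰, and slc1a2b and SLC6A20 are highest at 35‰.

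The smallest adjusted p among the 48 genes was that of slc1a5 in 35‰ versus 18‰. This gene encodes a sodium-dependent exchanger of glutamine and other small neutral amino acids. Its TPM was 8.14 and 7.67 at 0‰, 16.1 and 13.6 at 18‰, and 1.79 and 3.67 at 35‰. No overlap between groups occurred in the 3 comparisons, with the 18‰ libraries highest and the 35‰ libraries lowest. The fitted log2 fold change came to −2.13 in 35‰ versus 18‰ (standard error 0.30, limma's adjusted p = 0.0565), −1.30 in 35‰ versus 0‰ (standard error 0.30, limma's adjusted p = 0.204) and 0.83 in 18‰ versus 0‰ (standard error 0.30, limma's adjusted p = 0.75). In 35‰ versus 18‰ it passed the cutoffs under median-ratio scaling (limma's adjusted p = 0.0443) and, in a fit that assumes the lone 35‰ library to vary like the other groups, without 35‰ replicate 2 (0.0471), and over all alternatives limma's adjusted p ranged from 0.0443 to 0.393. The related slc1a4 had the same order at a lower level, with 1.39 and 2.37 TPM at 0‰, 2.53 and 3.28 at 18‰, and in the 35‰ libraries a listed 0 and 0.97. That 0 can be a failed estimate, so the fitted folds of slc1a4 at 35‰ are uncertain. The main limma counts below at an unadjusted p under 0.05 and a fold change above 1.5 that hold slc1a4 are also given without it. Other counts that hold it, such as those of libraries without overlap, are not.

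Glutamate and aspartate, a main fuel of enterocytes, are taken up by carriers of the same family, of which slc1a1 is the apical intestinal one in mammals. The slc1a1 gene had 38.2 and 21.4 TPM at 0‰, 37.7 and 50.5 at 18‰, and 10.4 and 23.01 at 35‰. The 35‰ libraries lay below both 18‰ libraries and overlapped those at 0‰, with a log2 fold change of −1.43 in 35‰ versus 18‰ (standard error 0.43, limma's adjusted p = 0.269). The gene slc1a2b, whose mammalian counterpart is known from glia and liver, ran the other way. It had 0.06 and 0.47 TPM at 0‰, 0.61 and 1.44 at 18‰, and 4.20 and 5.22 at 35‰, and each salinity lay above the one before without overlap. Its log2 fold change of 2.19 in 35‰ versus 0‰ was the largest of the 48 genes in that comparison (standard error 0.33, limma's adjusted p = 0.0752, range over the alternatives 0.0551 to 0.261). It was under 1 TPM in both 0‰ libraries and passed the level condition through 18‰ replicate 2 and the 35‰ libraries, so this difference is not independent of that condition. Of 8 neuron and glia markers in the table, plp1b and snap25a had both 35‰ libraries above both 0‰ libraries, all under 1 TPM. In phox2bb and elavl3 both 35‰ libraries lay below both 0‰ libraries. The phox2bb gene had 1.57 and 0.48 TPM at 35‰, against 2.58 and 1.89 TPM at 0‰. The sox10 gene had 3.46 TPM in 35‰ replicate 1 and 0.09 TPM in 35‰ replicate 2, against 0.12 and 0.40 TPM at 0‰. The others, stmn2a, elavl4 and plp1a, did not separate. The part of neurons and glia in the slc1a2b values was not tested. The slc1a3b gene differed widely between replicates, with 6.46 and 1.23 TPM at 0‰, 2.32 and 1.23 at 18‰, and 3.29 and 11.2 at 35‰.

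Among the sodium-coupled slc38 genes, slc38a9 differed most at 35‰. Its product sits on lysosomes, where it exports amino acids and reports arginine to growth signalling. The TPM was 18.2 and 10.4 at 0‰, 14.0 and 16.4 at 18‰, and 2.32 and 5.58 at 35‰. Both 35‰ libraries lay below the other 4, with a log2 fold change of −1.66 in 35‰ versus 0‰ (standard error 0.40, limma's adjusted p = 0.215) and −1.79 in 35‰ versus 18‰ (standard error 0.40, limma's adjusted p = 0.188). In the same libraries 4 of the 5 distal gut and lysosome-rich enterocyte genes were called lower in 35‰ versus 0‰, against 0.19% of all genes called in either direction. Among them was the lysosomal protease gene lgmn, with 66.7 and 82.7 TPM at 35‰, against 1069 and 689.8 TPM at 0‰. The part of that difference in the slc38a9 values was not tested.

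The table holds 3 genes named slc38a2, after a carrier that cells raise under hypertonic stress and amino acid shortage in mammals. They did not share an order. ENSPREG00000014855 had 5.01 and 5.57 TPM at 0‰, 9.14 and 5.04 at 18‰, and 12.3 and 10.3 at 35‰, and was highest at 35‰ (log2 fold change 0.96 in 35‰ versus 0‰, standard error 0.30, limma's adjusted p = 0.312). ENSPREG00000014808 had 8.33 and 5.01 TPM at 0‰, 15.7 and 3.16 at 18‰, and 2.90 and 1.80 at 35‰, and was lowest at 35‰. ENSPREG00000014787 had 30.8 and 10.6 TPM at 0‰, 19.9 and 14.3 at 18‰, and 18.8 and 17.0 at 35‰, and overlapped throughout. Genes of one name can share reads, so how their counts were divided is uncertain.

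Of the other slc38 genes, slc38a6 had 25.9 and 20.3 TPM at 0‰, 14.6 and 12.7 at 18‰, and 18.4 and 11.3 at 35‰. It was the one gene of the 48 that was lower at 18‰ at an unadjusted p under 0.05 with a fold change above 1.5, with a log2 fold change of −0.71 in 18‰ versus 0‰ (standard error 0.29, limma's adjusted p = 0.813). The slc38a10 gene was low but even, with 11.7 and 11.7 TPM at 0‰, 14.2 and 15.5 at 18‰, and 16.9 and 16.7 at 35‰, and each salinity lay above the one before. The slc38a4 gene, a liver carrier in mammals, had 7.89 and 13.6 TPM at 0‰, 15.2 and 13.4 at 18‰, and 7.07 and 8.40 at 35‰. Its 35‰ libraries lay below both 18‰ libraries, with a log2 fold change of −0.81 in 35‰ versus 18‰ (standard error 0.29, limma's adjusted p = 0.339). The higher of its 0‰ values was in replicate 2, the library with the most liver signal, at a liver sum of 1583 TPM. At 18‰ the liver sums were 6.20 and 4.37 TPM. The part of liver in the slc38a4 values was not tested.

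The proton-coupled carrier gene slc36a1, whose product moves small amino acids such as proline and glycine, had 28.9 and 20.2 TPM at 0‰, 21.1 and 23.3 at 18‰, and 15.4 and 19.6 at 35‰. Its 35‰ libraries were lowest, by a small margin, and the log2 fold change in 35‰ versus 0‰ was −0.46 (standard error 0.26, limma's adjusted p = 0.549). The facilitative carrier gene slc43a2b, whose product releases large neutral amino acids at the basolateral side in mammals, had 175 and 179.96 TPM at 0‰, 173 and 260.03 at 18‰, and 187 and 148 at 35‰, and no pair of salinities separated. In contrast, slc43a1a had 3.55 and 3.24 TPM at 0‰, 7.17 and 4.12 at 18‰, and 1.06 and 2.66 at 35‰, with no overlap in any comparison. The slc43a3b gene had 10.8 TPM in 0‰ replicate 1, the library with the most leukocyte signal, and 3.31 to 4.09 TPM in the other 5. Of the genes not described singly, slc6a16b ranged from 5.65 to 12.6 TPM, while slc1a6 and slc43a2a did not exceed 1.20 and 1.68 TPM.

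Set side by side, the 3 comparisons differed in direction over the 48 genes. In 18‰ versus 0‰, 19 genes had both libraries higher (39.6%, against 24.7% of all genes) and 4 had both lower (8.33%, against 12.8%). At an unadjusted p under 0.05 and a fold change above 1.5 in limma, 10 were higher (20.8%, against 3.82%) and 1 was lower (2.08%, against 1.92%). The 10 were enpep, xpnpep2, mep1a.1, mep1a.2, MEP1B, slc15a1b, slc6a19a.2, slc7a9, slc1a5 and slc6a7. The median log2 fold change was 0.32 over the 48 genes and 0.06 over all genes tested. Leaving out any 1 library, the median stayed between 0.21 and 0.37.

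In 35‰ versus 18‰ the counts turned round. Both 35‰ libraries were lower in 29 of the 48 genes (60.4%, against 29.0% of all genes) and higher in 10 (20.8%, against 18.7%). At an unadjusted p under 0.05 and a fold change above 1.5 in limma, 17 were lower (35.4%, against 8.37%), or 16 without slc1a4, and 2 were higher (4.17%, against 3.47%). The 17 lower genes comprised 5 peptidase genes, anpepb, xpnpep2, MEP1B, ANPEP and dpp7, and 12 transporter genes, and the 2 higher genes were slc1a2b and slc6a3. Both higher genes passed the level condition only with the help of 35‰ libraries, so their differences are not independent of it. The median log2 fold change was −0.53 over the 48 genes and −0.07 over all genes. The count of lower genes rests on few libraries. It fell by over 1.5 times without 35‰ replicate 1 and without either 18‰ library, and most without 35‰ replicate 1. Each of these fits leaves a lone library in a group. In these fits the share over all genes fell too, and the shares came closest without 35‰ replicate 1. In 37 of the 48 genes 35‰ replicate 1 lay below replicate 2 (77.1%, against 64.1% of all genes). The comparison shares its 18‰ libraries with that of 18‰ versus 0‰.

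In 35‰ versus 0‰ the counts changed with rescaling to equal sums and little with median-ratio scaling. Both 35‰ libraries were higher in 9 genes (18.8%, against 18.9% of all genes) and lower in 13 (27.1%, against 20%). Of those 13, 12 were among the 28 genes with a mean under 20 TPM (42.9%, against 20.3% of all genes at that level) and 1 was among the 20 more abundant genes (5.0%, against 19.4%). Higher at an unadjusted p under 0.05 and a fold change above 1.5 in limma were enpep, slc7a9, slc1a2b and slc38a2 ENSPREG00000014855, that is 4 genes (8.33%, against 4.62%). Of these, slc1a2b passed the level condition only with the help of 35‰ libraries, so its difference is not independent of it. Lower were slc7a3a, slc1a4, slc1a5, SLC6A19 and slc38a9, that is 5 genes (10.4%, against 6.13%), or 4 without slc1a4. The count of lower genes was 10 without 35‰ replicate 2 (20.8%, against 9.33% of all genes) and 3 without 35‰ replicate 1 (6.25%, against 5.05%). The median log2 fold change was −0.13 over the 48 genes and −0.01 over all genes, and it was −0.31 without 35‰ replicate 2. With every library rescaled to the same listed sum, 11 genes were lower (22.9%, against 10.9% of all genes) and 3 were higher (6.25%, against 2.56%), with a median of −0.31 over the 48 genes and −0.18 over all genes. Under median-ratio scaling 6 were lower (12.5%, against 6.38%) and 4 were higher (8.33%, against 4.7%).

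**Figure D5:**
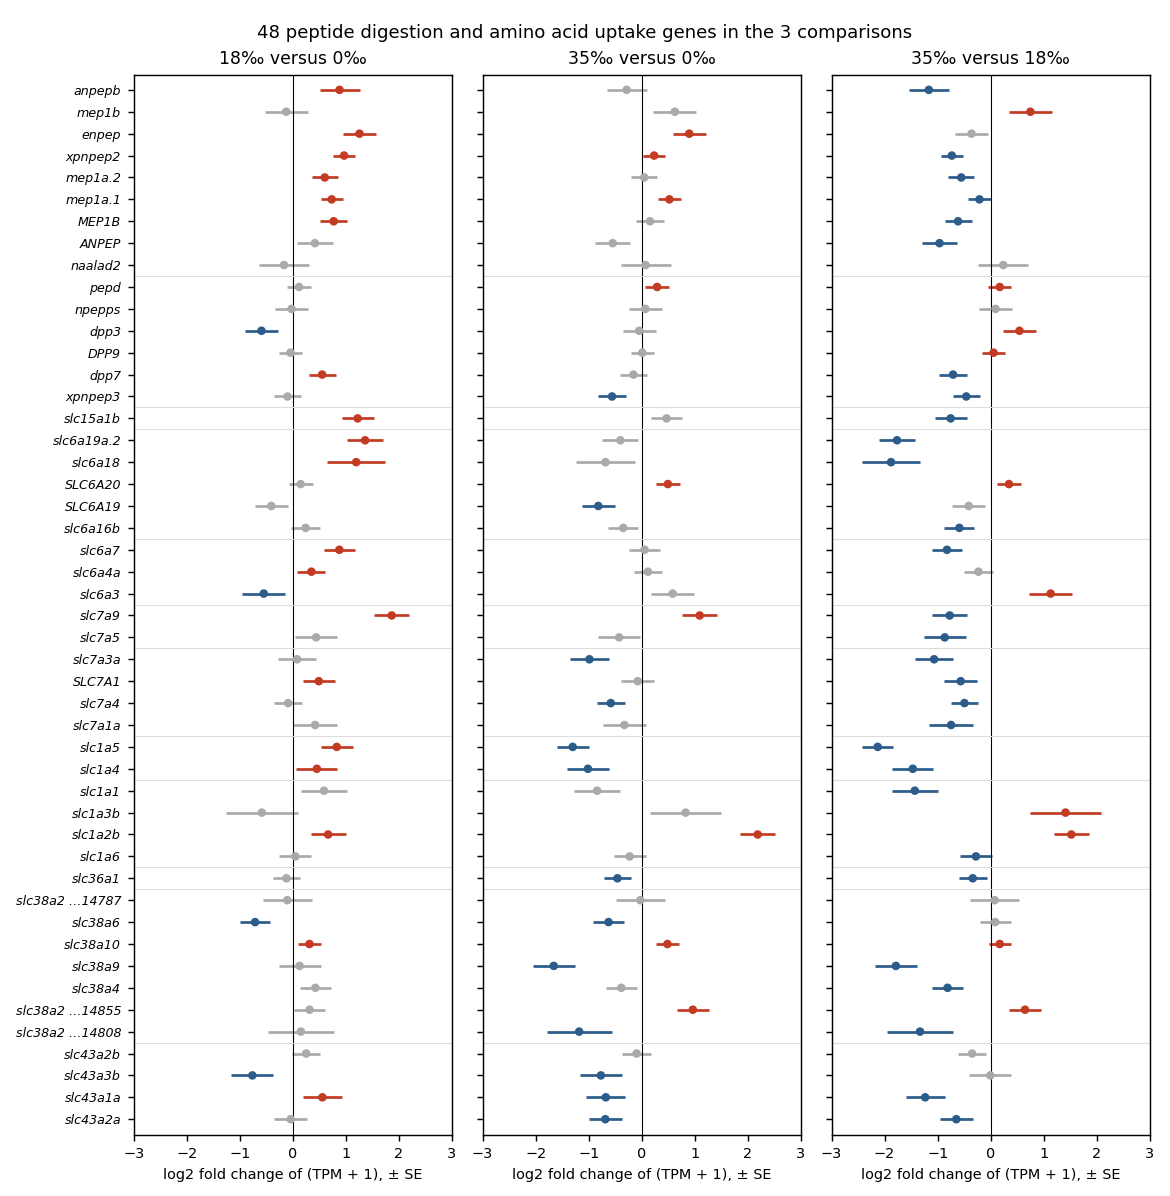
Log2 fold change of TPM + 1 with its standard error (horizontal axes) for each of the 48 genes (vertical axis, grouped by role) in 18‰ versus 0‰, 35‰ versus 0‰ and 35‰ versus 18‰. Red and blue mark genes with both libraries higher or lower than both of the other salinity, which are 19 and 4, 9 and 13, and 10 and 29 genes in the 3 panels, and grey marks overlap.

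Other genes of the same pathway were counted with the same fit. Of 7 tested genes for peptide handling none was called in any comparison in limma, and at an unadjusted p under 0.05 with a fold change above 1.5 they gave 1 higher and 1 lower in 18‰ versus 0‰, 0 and 1 in 35‰ versus 0‰, and 0 and 3 in 35‰ versus 18‰. Over all genes tested, those unadjusted shares were 3.82% higher and 1.92% lower, 4.62% and 6.13%, and 3.47% and 8.37%, in the same order. Both 18‰ libraries were above both 0‰ libraries in 3 of the 7 and below in 2, against 24.7% and 12.8% of all genes. The one lower at an unadjusted p under 0.05 was cndp2, for a cytosolic dipeptidase, with 3.67 and 5.46 TPM at 0‰, 0.41 and 2.28 at 18‰, and a listed 0 in both 35‰ libraries, so its folds at 35‰ are uncertain. The ace gene, for the brush-border peptidase that converts angiotensin, had 63.6 and 54.2 TPM at 0‰, 109.7 and 231 at 18‰, and 19.3 and 40.7 at 35‰. It was highest at 18‰ and lowest at 35‰, with a log2 fold change of −2.46 in 35‰ versus 18‰ (standard error 0.45, limma's adjusted p = 0.118). The ggt1b gene, for a brush-border enzyme that splits glutathione, had 24.8 and 14.2 TPM at 0‰, 35.9 and 47.9 at 18‰, and 2.33 and 18.9 at 35‰.

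Of 4 tested genes for partners and exits, none was called. At an unadjusted p under 0.05 and a fold change above 1.5 in limma, 2 were lower in both comparisons of 35‰. Over all genes that share was 6.13% in 35‰ versus 0‰ and 8.37% in 35‰ versus 18‰. One was slc16a10, for the basolateral carrier of aromatic amino acids, with 59.4 and 57.5 TPM at 0‰, 63.5 and 73.1 at 18‰, and 10.7 and 24.7 at 35‰. Both its 35‰ libraries lay far below the rest (log2 fold change −1.78 in 35‰ versus 0‰, standard error 0.37, limma's adjusted p = 0.161). The other was the mitochondrial aspartate and glutamate carrier slc25a12, at −1.51 (standard error 0.52, limma's adjusted p = 0.352). Of 10 tested genes of the amino acid stress response none was called. At the same unadjusted cutoffs, cbsa was lower in 18‰ versus 0‰ and higher in 35‰ versus 18‰. The asns gene was lower in both comparisons of 35‰, and no other of the 10 passed. These are 1 of 10 genes each time, against 1.92%, 3.47%, 6.13% and 8.37% of all genes in that order. The asns gene makes asparagine and is induced by amino acid shortage. It had 65.3 and 59.7 TPM at 0‰, 75.2 and 71.3 at 18‰, and 29.7 and 48.5 at 35‰. For cbsa the values were 24.8 and 39.7 TPM at 0‰, 10.3 and 10.4 at 18‰, and 31.05 and 14.1 at 35‰. Of 7 tested genes of secreted proteases 2 were called lower in 35‰ versus 0‰ and 2 in 35‰ versus 18‰, against 0.19% and 0.317% of all genes called in either direction. These are the pancreatic genes cpb1 and prss59.1, which are also in the pancreas marker list.

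Enterocyte genes outside the pathway were counted in the same way. Of 7 enterocyte markers tested, 5 had both 18‰ libraries above both 0‰ libraries, against 24.7% of all genes, and 4 had both 35‰ libraries below both 18‰ libraries, against 29.0% of all genes. Among them, the lactase gene LCT had 16.8 and 26.6 TPM at 0‰, 62.9 and 67.4 at 18‰, and 27.1 and 31.8 at 35‰, and the alkaline phosphatase gene alpi.2 had 167 and 160.03 TPM at 0‰, 220.2 and 353 at 18‰, and 114 and 135 at 35‰. Both were highest at 18‰. The adhesion gene cdh17 was instead highest at 35‰, with 912 and 1063 TPM at 0‰, 1160.04 and 1201 at 18‰, and 1332 and 2236 at 35‰. Whether the share of enterocytes, or the stretch of gut taken, had a part in the values of the 48 genes was not tested.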

How the data were processed

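The 6 intestine libraries were sequenced as 100-bp paired-end reads. STAR served for alignment and StringTie for quantification, and the authors deposited the levels as TPM. They were taken unchanged. Versions, genome build and annotation are not given in the sources used here, so genes carry Ensembl identifiers and no positions. TPM keeps no read number, so depth is unknown. The listed genes summed to between 419412 and 481864 TPM per library.

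Groups came from the treatment labels. Genes with at least 1 TPM in at least 2 libraries were tested in R 4.3.3 with limma 3.58.1 on log2(TPM + 1), with a mean-variance trend, one spread per gene over the 6 libraries, no block and Benjamini-Hochberg adjustment over 7897 genes. Fold changes on this scale understate those of low genes. The cutoffs follow those the authors used with DESeq2, which needs counts. The procedure was tested on simulated data. Python 3.11.15 with pandas 2.3.3 computed levels and counts.

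Genes named singly had a mean of at least 20 TPM at a salinity, or an unadjusted p under 0.05 with a fold change above 1.5 and no overlap in a comparison, or belonged to the slc7 light chains or slc15. Other names were chosen after their values were seen. The genes and lists were chosen with earlier results of these data known. Symbols of gene lists were matched with paralog suffixes, and genes that only share letters with the protease symbols were left out of that list after the match. By symbol, 35 of the 48 genes matched RefSeq, which was used for neighbours only. Goblet, enteroendocrine and smooth muscle lists were also summed. Sequences were not analysed here. One gene of the peptide handling list is not reported here.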

Additional observations from a re-analysis of the deposited data

How the results depend on the processing

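Alternatives covered the pseudocount (0.1 and 0.5), the filter (none, or a mean of at least 5 TPM), median-ratio scaling, rescaling of the listed genes to equal sums, no trend, a replicate block, only the 2 salinities compared, and each library left out in turn. The 48 differences between salinities followed for genes named by the rule, those of over 1.5-fold without overlap, kept their direction in all 711 alternative values. For differences without overlap only median-ratio scaling and rescaling to equal sums could have reversed it. Under the other alternatives the direction was fixed in advance. The count of called genes stayed at 0 in 18‰ versus 0‰ and in 35‰ versus 0‰ under every alternative run. In 35‰ versus 18‰ it was 1, slc1a5, with median-ratio scaling, and it ranged from 0 to 1 with a library left out. Rescaling to equal sums moved the median log2 fold change of all genes to −0.18 in 35‰ versus 0‰ and −0.16 in 35‰ versus 18‰. That of the 48 genes moved to −0.31 and −0.66. The genes lowest at 35‰ were then 17 (35.4%, against 21.2% of all genes), where unscaled values gave 10 (20.8%, against 14.2%). At an unadjusted p under 0.05 and a fold change above 1.5 in limma, 11 were lower in 35‰ versus 0‰ (22.9%, against 10.9%). Without rescaling it was 5 (10.4%, against 6.13%). The listed TPM summed to 481864 and 481529 at 35‰ and to 419412 to 459528 in the other libraries.

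With a library left out, the median of the 48 genes ranged from −0.31 to −0.00091 in 35‰ versus 0‰ and from −0.70 to −0.35 in 35‰ versus 18‰. The genes lowest at 0‰ ranged from 6 to 15 (12.5% to 31.2%, against 9.99% to 25.6% of all genes under the same omissions), and those lowest at 35‰ from 11 to 24 (22.9% to 50.0%, against 15.9% to 36.4%). These fits have fewer samples, and further causes were not tested. Unadjusted counts of 5 or fewer also moved by over 1.5 times. Genes lower in 18‰ versus 0‰ were 1 (2.08%, against 1.92% of all genes). They were 0 without a filter (against 1.24%) and 2 with the block (4.17%, against 2.09%). Genes lower in 35‰ versus 0‰ were 3 without a filter (6.25%, against 3.64%). Genes higher in 35‰ versus 18‰ were 2 (4.17%, against 3.47%). They were 0 of 37 with the stricter filter (against 3.64%) and 4 with only those 2 salinities (8.33%, against 4.22%). With a library left out such small counts moved as well. The larger count of genes lower in 35‰ versus 18‰ also fell by over 1.5 times without 35‰ replicate 1 and without either 18‰ library.

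No source says that a replicate number marks shared fish or tanks, and deviations of same-numbered libraries correlated over 7897 genes at 0.06, −0.04 and 0.05. With the replicate block, 0 genes were called in each comparison. The block is balanced over the salinities and cannot change a fold change, so the medians of 0.32, −0.13 and −0.53 stayed by design. Depth is unknown, so no counting error could be given.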
